A study of Sus scrofa with 18 samples.

Results

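Clustered H3K27ac domains were described in pig myometrium, in 3 kinds of smooth muscle: the circular muscle of the pregnant uterus (GD15M_CM), the longitudinal muscle of the pregnant uterus (GD15M_LM) and the circular muscle of the cyclic uterus (CD15M_CM). In each H3K27ac peak list, peaks with a fold enrichment of at least 4 on chromosomes 1 to 18 and X were joined where less than 12500 bases apart, and the 300 joined domains with the largest score were kept. The score of a domain is the sum over its peaks of fold enrichment times length, in fold enrichment × kb, and every score given here is in that unit. The 300 domains were chosen from 13315 joined domains of GD15M_CM, 14256 of GD15M_LM and 14864 of CD15M_CM. The study used Yorkshire gilts on day 15 of pregnancy or day 15 of the estrous cycle, and all tissue came from the mesometrial side of the uterus. H3K27ac, H3K4me3 and IgG libraries were made by CUT&Tag, in which an antibody guides a transposase to the marked chromatin, from 2 gilts of each group, 18 libraries in all. Peaks were called on the pooled reads of both gilts, so each mark and group had 1 list. No spread between gilts could be computed, no difference was tested, and all differences below describe these pooled lists. The peak lists give no read counts, and the read numbers that the study reports were not used, so depth was not taken into account. Muscle layers hold several cell types, and fewer cells of a type cannot be told apart from less of the mark per cell.

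H3K27ac is an acetyl mark laid on histone H3 at active promoters and enhancers, whereas H3K4me3 marks the promoters of active genes. Long runs of closely spaced H3K27ac peaks, often called super-enhancers, are known for lying at genes that define a cell type. In the myometrium, such genes include those for the actin and myosin machinery of smooth muscle contraction, the transcription factors that pattern the reproductive tract, and the matrix that binds the muscle bundles.

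The domains were long but not distinct from the rest by any step in the score. Their median span was 41.8 kb in GD15M_CM, 41.0 kb in GD15M_LM and 45.0 kb in CD15M_CM, against 1.94 kb, 1.55 kb and 1.82 kb over all joined domains. A median of 8 peaks lay in each domain in all 3 lists, whereas 62.7%, 68.0% and 63.9% of all joined domains were a single peak. The 300 domains held 18.03% of the filtered H3K27ac score in GD15M_CM, against 18.7% in GD15M_LM and 17.9% in CD15M_CM. The score fell smoothly through the limit of 300, from 72.7 at rank 300 to 72.5 at rank 301 in GD15M_CM, from 72.0 to 71.8 in GD15M_LM, and from 80.7 to 80.3 in CD15M_CM. Just inside the limit lay the domains of CCDC117 and XBP1 in GD15M_CM, of KIFC1, PHF1 and CUTA in GD15M_LM, and of KLF6 in CD15M_CM. Just outside lay those of SUN2, of SDC4 and SYS1, and of TXNRD2, in the same order of lists. The plot of the score by rank shows the 3 lists following nearly the same curve.

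**Figure D1:**
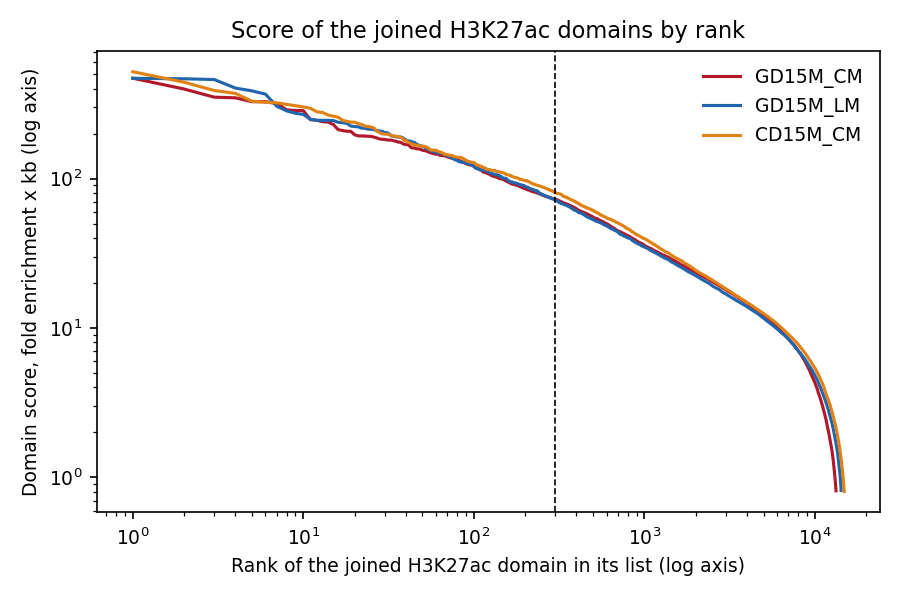
Score of every joined H3K27ac domain (fold enrichment × kb, log axis) against its rank in its list (log axis), 1 line for each pooled list, with every domain drawn to rank 1000 and every 10th after it. The dashed line marks rank 300, where the 3 scores were 72.7, 72.0 and 80.7 and the curves show no step.

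The domains overlapped 990 RefSeq genes in GD15M_CM, 883 in GD15M_LM and 807 in CD15M_CM, which is 3.53%, 3.15% and 2.87% of the 28073 genes placed on these chromosomes. Each domain overlapped a median of 2 genes. In GD15M_CM 69 domains overlapped a single gene, in GD15M_LM 81 and in CD15M_CM 98, and 7, 7 and 4 domains overlapped none. H3K4me3, which the choice of domains did not use, was present in 296 of 300 domains of GD15M_CM (98.7%), 298 of GD15M_LM (99.3%) and 297 of CD15M_CM (99.0%), whereas 68.8%, 74% and 65% of all joined domains of the same lists held an H3K4me3 peak. The domains were also longer than the rest, for which this comparison makes no allowance. Peak by peak the marks were closer: 58.5% of the H3K27ac peaks inside the GD15M_CM domains overlapped an H3K4me3 peak, against 56.6% of those outside, and in CD15M_CM the values were 54.2% and 54.4%. More of the peaks inside the domains lay in a gene body away from the gene ends, with 44.7% in GD15M_CM, 46.3% in GD15M_LM and 53.5% in CD15M_CM, compared with 38.5%, 34.9% and 40.2% of the other peaks.

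The loci of largest score held by all 3 tissues covered, among others, transcriptional regulators, HOX genes and smooth muscle microRNAs. When overlapping domains of the 3 lists were joined into loci, the first by score was a locus at chr5:3365134-3477339, which overlaps LOC110260611, LOC110260612 and LOC106508707. Its score was 499 in GD15M_CM, 459 in GD15M_LM and 526 in CD15M_CM, and no list stood out. ZMIZ1, which codes for a coactivator of the androgen receptor and of SMAD proteins, filled a locus at chr14:81402664-81546368 by itself. The ZMIZ1 score was 347 in GD15M_CM, 465 in GD15M_LM and 441 in CD15M_CM, lowest in GD15M_CM. A locus of ST5, RPL27A (a ribosomal protein gene) and TRIM66 at chr9:604473-732126 scored 347 in GD15M_CM, 468 in GD15M_LM and 401 in CD15M_CM, which made it the first domain of GD15M_LM. In CD15M_CM the same ST5 locus was cut into several domains, the best of them at rank 49.

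The locus of MIR143 and MIR145, microRNAs known for keeping smooth muscle cells in the contractile state, lay at chr2:150525813-150621954 together with CSNK1A1, PCYOX1L and IL17B. It scored 286 in GD15M_CM, 406 in GD15M_LM and 244 in CD15M_CM, and its H3K27ac peaks covered 47.5 kb in GD15M_CM, 61.3 in GD15M_LM and 38.8 in CD15M_CM. GD15M_LM was the highest list for this locus, and both circular muscles lay closer to each other. H3K4me3 at this locus, measured the same way, had a score of 305 in GD15M_CM, 939 in GD15M_LM and 697 in CD15M_CM, so the lowest list for H3K4me3 was GD15M_CM. The MPRIP locus at chr12:61088540-61194655, whose protein targets myosin phosphatase to actin filaments, scored 198 in GD15M_CM, 386 in GD15M_LM and 313 in CD15M_CM. CAPZB, which codes for an actin capping protein, had a locus at chr6:77777608-77914453 with a score of 176 in GD15M_CM, 162 in GD15M_LM and 371 in CD15M_CM, and here CD15M_CM stood above both pregnant layers.

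Joining gave 516 loci, of which 109 (21.1%) were held by all 3 tissues. GD15M_CM alone held 104 loci, GD15M_LM alone 88 and CD15M_CM alone 64. Pairs of tissues held the rest: 64 loci were held by GD15M_LM and CD15M_CM but not by GD15M_CM, 58 by both circular muscles, and 29 by both pregnant layers. Of the 300 domains of GD15M_CM, 138 overlapped one of GD15M_LM (46.0%, exact 95% interval 40.3 to 51.8, counting error only), whereas 3.08% of all joined GD15M_CM domains did. For CD15M_CM the count was 165 (55.0%, 49.2 to 60.7), against 3.15% of all joined domains. GD15M_LM shared 181 of its 300 domains with CD15M_CM (60.3%, 54.6 to 65.9; 3.03% of all joined domains) and 141 with GD15M_CM (47.0%, 41.2 to 52.8; 3% of all joined domains). CD15M_CM in turn shared 168 of its 300 domains with GD15M_CM (56.0%; 2.66% of all joined domains) and 177 with GD15M_LM (59.0%; 2.62%). The pregnant longitudinal muscle overlapped the cyclic circular muscle in more domains than it overlapped the pregnant circular muscle of the same stage, without a test of that difference.

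Holding by 1 tissue was a matter of rank and seldom of presence. Between 295 and 300 of the 300 domains of a list overlapped some joined domain of each other list, whereas among all joined domains 67.9% of GD15M_CM overlapped some domain of GD15M_LM and 68.6% one of CD15M_CM, 64% and 71% of GD15M_LM overlapped one of GD15M_CM and of CD15M_CM, and 61.3% and 67.1% of CD15M_CM one of GD15M_CM and of GD15M_LM. Of the 104 loci of GD15M_CM alone, 83 reached rank 1000 or better in another list, as did 76 of the 88 loci of GD15M_LM alone and 48 of the 64 of CD15M_CM alone. The median ratio of a locus score to the next list was 1.63 for GD15M_CM alone, 1.52 for GD15M_LM alone and 1.599 for CD15M_CM alone. In 32, 15 and 15 of these loci both other lists were below 50% of the holding list. A few ran against their class, since in 3, 6 and 2 of them another list had a higher summed score, split over several smaller domains. In 13, 10 and 13 of them the locus score of another list reached the rank 300 score of that list. The same held for 19 of the 58 loci of both circular muscles in GD15M_LM. It also held for 12 of the 29 loci of both pregnant layers in CD15M_CM. For GD15M_CM it held at 14 of the 64 loci of GD15M_LM and CD15M_CM. The plot of loci by class shows how far the scores of the lists overlap.

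Smooth muscle contractile genes were frequent among the domains, and more of them lay in the domains of GD15M_LM and CD15M_CM than in those of GD15M_CM. Of 30 listed genes of the contractile apparatus, 7 overlapped a domain of GD15M_CM, 13 one of GD15M_LM and 12 one of CD15M_CM, beside the 3.53%, 3.15% and 2.87% of all genes. In GD15M_LM but not in GD15M_CM were 8 of the 30, against 1.55% of all genes, and in GD15M_CM but not in GD15M_LM were 2, against 1.93%. In CD15M_CM but not in GD15M_CM were 6, against 1.12%, and in GD15M_CM but not in CD15M_CM was 1, against 1.77%. The comparisons of GD15M_LM and of CD15M_CM with GD15M_CM rest on the same GD15M_CM list. MYLK, the kinase that phosphorylates myosin light chain to start contraction, had a locus at chr13:136698368-136807800 with a score of 88.7 in GD15M_CM, 222 in GD15M_LM and 225 in CD15M_CM. Its H3K27ac peaks covered 18.8 in GD15M_CM, 43.0 in GD15M_LM and 43.0 in CD15M_CM (kb) at a mean fold enrichment of 4.71 in GD15M_CM, 5.15 in GD15M_LM and 5.24 in CD15M_CM, so that more sequence was covered in GD15M_LM and CD15M_CM at nearly the same height. The MYLK score was 2.501-fold higher in GD15M_LM and 2.54-fold higher in CD15M_CM than in GD15M_CM. In GD15M_CM it was still above the rank 300 score of 72.7, but split over domains of which the best ranked 554. H3K4me3 at MYLK scored 136 in GD15M_CM, 474 in GD15M_LM and 319 in CD15M_CM, in the order GD15M_LM, CD15M_CM, GD15M_CM.

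PALLD, an actin-bundling scaffold, had a score of 80.9 in GD15M_CM, 236 in GD15M_LM and 178 in CD15M_CM at chr14:20712451-20777600, with 15.2 in GD15M_CM, 31.7 in GD15M_LM and 28.4 in CD15M_CM (kb) covered at a mean fold of 5.32 in GD15M_CM, against 7.44 in GD15M_LM and 6.26 in CD15M_CM. The locus of TAGLN, a calponin family protein that binds actin, at chr9:44543020-44598207 scored 82.6 in GD15M_CM, 189.5 in GD15M_LM and 154 in CD15M_CM, and it also overlaps SIDT2, PCSK7 and RNF214. DES, the muscle intermediate filament gene, lay with DNPEP and SPEG at chr15:121403628-121471652, where the score was 50.8 in GD15M_CM, 175 in GD15M_LM and 97.0 in CD15M_CM. In all of these GD15M_LM was the highest list and GD15M_CM the lowest. The GD15M_CM scores of PALLD and TAGLN were above the rank 300 score of 72.7, but split over smaller domains. That of DES was below it. ZYX, a focal adhesion protein, was held by GD15M_LM alone, with 48.1 in GD15M_CM, 100.9 in GD15M_LM and 56.4 in CD15M_CM.

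MYH11, the smooth muscle myosin heavy chain, gave a value that depended on the fold minimum. At chr3:7000280-7052524 it scored 49.2 in GD15M_CM, 80.0 in GD15M_LM and 94.6 in CD15M_CM, and its best single domain ranked 919 in GD15M_CM, 243 in GD15M_LM and 567 in CD15M_CM. With a minimum of 5 in place of 4, the MYH11 log2 ratio of GD15M_LM over GD15M_CM went from 0.70 to -2.32, while the GD15M_LM locus held 16 peaks with a mean fold of 4.40, where GD15M_CM had 3 peaks at 6.24. H3K4me3 at this MYH11 locus scored 109 in GD15M_CM, 426 in GD15M_LM and 243 in CD15M_CM.

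SMTN, CSRP1, PPP1R12B, LMOD1 and ACTN1 overlapped a domain in all 3 tissues. SMTN, a cytoskeletal protein of contractile smooth muscle, scored 229.8 in GD15M_CM, 212 in GD15M_LM and 257 in CD15M_CM, and the 3 lists lay close together. CSRP1, a LIM protein of smooth muscle, scored 183 in GD15M_CM, 242 in GD15M_LM and 261 in CD15M_CM. PPP1R12B, a targeting subunit of myosin phosphatase, scored 141 in GD15M_CM, 249 in GD15M_LM and 245 in CD15M_CM, and LMOD1, which nucleates actin filaments, scored 99.4 in GD15M_CM, 166 in GD15M_LM and 179.8 in CD15M_CM. For PPP1R12B and LMOD1 the ratio of CD15M_CM over GD15M_CM turned below 1 with a fold minimum of 5, at log2 -0.47 and -0.48. ACTN1, an actin crosslinker, had 158 in GD15M_CM, 147 in GD15M_LM and 172 in CD15M_CM, and TPM2, a tropomyosin, had 132 in GD15M_CM, 184 in GD15M_LM and 227 in CD15M_CM in a gene-dense locus shared with TLN1 and CREB3, of which the GD15M_CM domain did not reach TPM2 itself. On the other hand, 2 contractile genes were held in GD15M_CM and not in GD15M_LM. TPM1, another tropomyosin, scored 109.7 in GD15M_CM, 45.0 in GD15M_LM and 100.7 in CD15M_CM and was held by both circular muscles, and PPP1R14A, an inhibitor of myosin phosphatase, scored 120.3 in GD15M_CM, 90.4 in GD15M_LM and 78.3 in CD15M_CM, with SPINT2 and YIF1B in the same locus. The other 15 contractile genes, among them ACTA2, ACTG2, CNN1 and MYL9, overlapped no domain. Some of these had a small score and some a larger one, spread over several peaks: the H3K27ac score over the gene and 3 kb on each side was 19.6 in GD15M_CM, 34.1 in GD15M_LM and 25.1 in CD15M_CM for ACTA2 and 14.7 in GD15M_CM, 35.3 in GD15M_LM and 32.8 in CD15M_CM for CNN1, whereas CALD1, the caldesmon gene, had 64.1 in GD15M_CM, 75.9 in GD15M_LM and 100.6 in CD15M_CM. In these 3 genes GD15M_CM was the lowest list. Over the whole contractile list this gene score was higher in GD15M_LM than in GD15M_CM for 22 genes and lower for 8, and higher in CD15M_CM for 26 and lower for 3 (25 and 4 when scaled to the list totals). Over all genes 7351 were higher in GD15M_LM than in GD15M_CM and 8393 lower, while for CD15M_CM against the same list 7923 were higher and 7654 lower.

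**Figure D2:**
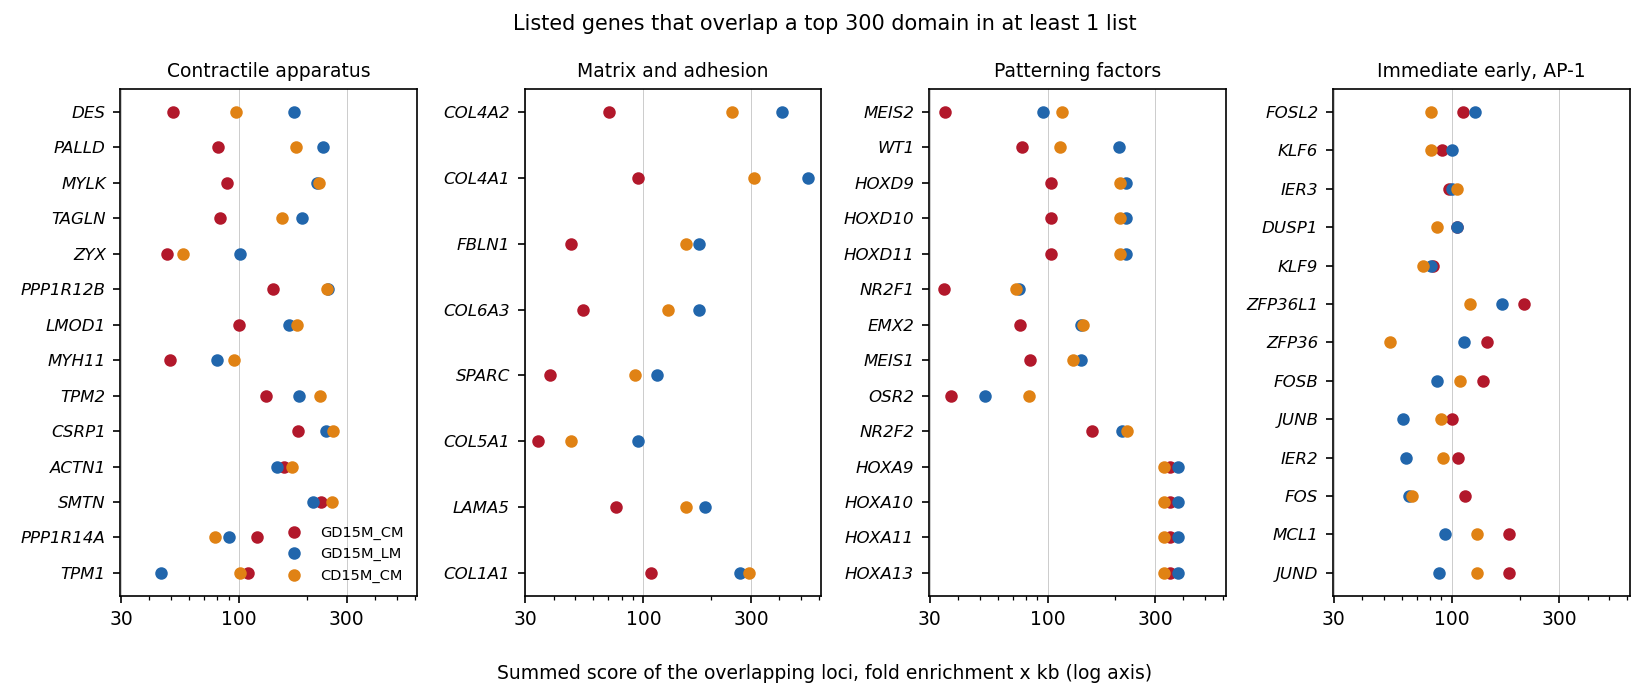
H3K27ac score of the loci that overlap each gene (fold enrichment × kb, log axis), summed where a gene overlaps 2 loci, for 14 contractile, 8 matrix, 14 patterning and 13 immediate early genes of 4 lists with a domain in at least 1 tissue (1 contractile and 1 patterning gene are not shown); each point is 1 pooled list. GD15M_CM is the lowest point for all 8 matrix genes and for 10 of the 14 contractile genes (not for SMTN, ACTN1, TPM1 and PPP1R14A), and the highest for 9 of the 13 immediate early genes.

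Of 26 listed hormone and contraction receptors and channels, CACNA1C was the only one in a domain, in GD15M_LM and CD15M_CM (3.85%, beside 3.15% and 2.87% of all genes). CACNA1C codes for the pore of the L-type calcium channel that lets calcium into the muscle cell, and its locus at chr5:69015581-69120791 scored 79.2 in GD15M_CM, against 198 in GD15M_LM and 186 in CD15M_CM. The score was 2.498-fold higher in GD15M_LM than in GD15M_CM, with 17.4 in GD15M_CM, 33.8 in GD15M_LM and 34.1 in CD15M_CM (kb) covered and a mean fold of 4.56 in GD15M_CM, 5.86 in GD15M_LM and 5.46 in CD15M_CM. Of 19 smooth muscle regulators, 1 overlapped a domain of GD15M_CM (5.26%), 4 one of GD15M_LM (21.1%) and 3 one of CD15M_CM (15.8%), beside the 3.53%, 3.15% and 2.87% of all genes. JPH2, which ties the cell surface to the calcium store, scored 43.6 in GD15M_CM, 163 in GD15M_LM and 155 in CD15M_CM and was held by GD15M_LM and CD15M_CM. TBX2 and TBX3, T-box repressors, were held by GD15M_LM alone, with 29.2 in GD15M_CM, 128 in GD15M_LM and 68.9 in CD15M_CM for TBX2 and 28.4 in GD15M_CM, 88.5 in GD15M_LM and 60.6 in CD15M_CM for TBX3. The TBX2 signal lay at the gene ends: without the peaks within 2.5 kb of a gene end, its log2 ratio of GD15M_LM over GD15M_CM was -2.05 in place of 2.13. MEF2D, a muscle transcription factor, was held by all 3 tissues with 169 in GD15M_CM, 132 in GD15M_LM and 151 in CD15M_CM, and TEAD3, a factor of the Hippo pathway, by CD15M_CM alone with 84.4 in GD15M_CM, 67.4 in GD15M_LM and 135 in CD15M_CM.

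Extracellular matrix genes lay in the GD15M_CM domains at about the share of all genes and were more frequent in the domains of the other lists. Of 28 listed genes of matrix and adhesion, 1 overlapped a domain of GD15M_CM (3.57%), 8 one of GD15M_LM and 7 one of CD15M_CM, beside the 3.53%, 3.15% and 2.87% of all genes. In GD15M_LM but not in GD15M_CM were 7 of the 28, against 1.55% of all genes. COL4A1 and COL4A2, the paired genes of type IV collagen in the basement membrane around each muscle cell, lay at chr11:76977089-77144344. Their locus scored 70.6 in GD15M_CM, 410.0 in GD15M_LM and 248 in CD15M_CM, with 13 in GD15M_CM, 47 in GD15M_LM and 30 in CD15M_CM filtered peaks and 14.7 in GD15M_CM, 72.7 in GD15M_LM and 48.3 in CD15M_CM (kb) covered at a mean fold of 4.82 in GD15M_CM, against 5.64 in GD15M_LM and 5.14 in CD15M_CM. The peaks were thus more numerous and covered more sequence in GD15M_LM, and the score there was 5.81-fold that of GD15M_CM and 1.65-fold that of CD15M_CM. H3K4me3 in the same locus had a score of 99.9 in GD15M_CM, 272 in GD15M_LM and 188 in CD15M_CM and reached a fold of 18.05 in GD15M_CM, 23.97 in GD15M_LM and 22.0 in CD15M_CM, so the promoter mark was present in each list. A second locus inside COL4A1 was held by GD15M_LM alone, with 24.02 in GD15M_CM, against 126 in GD15M_LM and 60.2 in CD15M_CM. The map of the peaks across the locus shows the GD15M_LM peaks spread over both genes, where GD15M_CM has 1 group near the promoter peak of H3K4me3 and another past the centre.

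**Figure D3:**
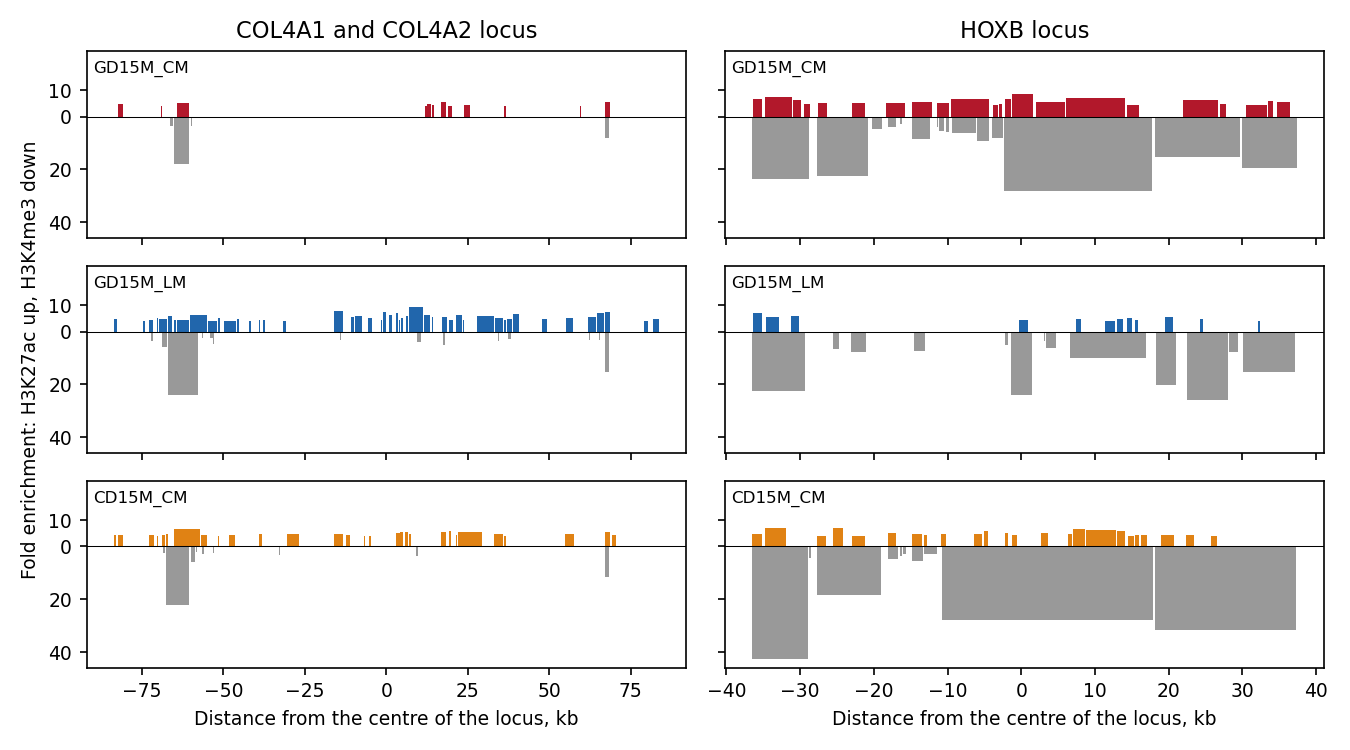
Peaks of the COL4A1 and COL4A2 locus (left) and the HOXB locus (right) by distance from the centre of the locus in kb, 1 row for each pooled list. Bar width is the length of the peak and bar height its fold enrichment, H3K27ac peaks of at least 4-fold upward in color and all H3K4me3 peaks downward in gray. At COL4A1 and COL4A2 the H3K27ac peaks number 13 in GD15M_CM, 47 in GD15M_LM and 30 in CD15M_CM, and at HOXB 22, 12 and 24.

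COL1A1, which codes for fibrillar collagen I, and LAMA5, a laminin chain, lay in loci of all 3 tissues, but the GD15M_CM domain overlapped LAMA5 and stopped short of COL1A1. The COL1A1 locus at chr12:26314132-26419523, shared with SGCA, SAMD14 and PPP1R9B, scored 108 in GD15M_CM, 268 in GD15M_LM and 295 in CD15M_CM, with 17.4 in GD15M_CM, 45.9 in GD15M_LM and 52.2 in CD15M_CM (kb) covered. LAMA5 scored 75.7 in GD15M_CM, 188 in GD15M_LM and 155 in CD15M_CM, and without the gene ends its log2 ratio of CD15M_CM over GD15M_CM was -0.42 in place of 1.03. COL6A3, of the microfibrillar collagen VI, scored 53.8 in GD15M_CM, 177 in GD15M_LM and 128 in CD15M_CM, and SPARC, a collagen-binding glycoprotein, 38.6 in GD15M_CM, 115 in GD15M_LM and 92.1 in CD15M_CM. These both belonged to GD15M_LM and CD15M_CM. COL5A1 was held by GD15M_LM alone, with 34.1 in GD15M_CM, 94.9 in GD15M_LM and 47.9 in CD15M_CM, and FBLN1, of elastic fibers, had 1 locus of GD15M_LM alone with 22.4 in GD15M_CM, 99.1 in GD15M_LM and 73.7 in CD15M_CM and 1 of CD15M_CM alone with 25.3 in GD15M_CM, 76.6 in GD15M_LM and 80.8 in CD15M_CM. Of a separate list of 33 growth factor signalling genes, 1 lay in a domain of GD15M_CM, 2 in GD15M_LM and 1 in CD15M_CM (3.03%, 6.06% and 3.03%), near the share of all genes, and the gene score was higher in GD15M_LM than in GD15M_CM for 15 and lower for 13. PDGFRB of that list, the receptor that marks mural cells and fibroblasts, had no filtered H3K27ac peak in its GD15M_CM locus, against scores of 90.3 in GD15M_LM and 56.6 in CD15M_CM, while its H3K4me3 score was 51.2 in GD15M_CM, 115 in GD15M_LM and 98.3 in CD15M_CM. Over the whole matrix list the gene score was higher in GD15M_LM than in GD15M_CM for 23 of 28 genes and higher in CD15M_CM for 20 (19 when scaled to the list totals), beside 7351 higher and 8393 lower of all genes for GD15M_LM and 7923 and 7654 for CD15M_CM. The sum over markers of fibroblasts and interstitial cells moved the same way: none of the 12 lay in a domain, and their summed gene score was 21.4 in GD15M_CM, against 78.0 in GD15M_LM and 86.9 in CD15M_CM. Against GD15M_CM, 6 of the 12 were higher in GD15M_LM, 2 lower and 4 at 0 in both lists. In CD15M_CM 8 were higher, 2 lower and 2 at 0 in both. The part of these cells in the matrix result was not tested.

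Transcription factors that pattern the reproductive tract lay in the domains of all 3 tissues. Of 27 listed factors, 10 overlapped a domain of GD15M_CM, 14 one of GD15M_LM and 13 one of CD15M_CM, beside the 3.53%, 3.15% and 2.87% of all genes. Held by all 3 were 10, against 1.13% of all genes. HOXA9, HOXA10, HOXA11 and HOXA13 share a locus, as do HOXD9, HOXD10 and HOXD11, so these genes are not separate domains. The HOXA cluster at chr18:45372801-45477967 scored 350.2 in GD15M_CM, 380.0 in GD15M_LM and 329 in CD15M_CM and was among the first 6 domains of every list. Its posterior genes HOXA9, HOXA10 and HOXA11, which pattern the oviduct and uterus, lay in the domain of each list. Of the 11 HOXA genes, 9 were in the GD15M_CM domain, 7 in that of GD15M_LM and 11 in that of CD15M_CM. The GD15M_LM peaks were fewer and taller, 43.9 kb at a mean fold of 8.65, compared with 58.6 kb at 5.98 in GD15M_CM, and left out the anterior genes HOXA2, HOXA4 and HOXA5.

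The HOXB cluster separated the circular from the longitudinal lists. Its locus at chr12:24795353-24868290 scored 317 in GD15M_CM, 59.0 in GD15M_LM and 150.4 in CD15M_CM, with 51.4 in GD15M_CM, 11.3 in GD15M_LM and 28.7 in CD15M_CM (kb) covered at a mean fold of 6.17 in GD15M_CM, 5.24 in GD15M_LM and 5.25 in CD15M_CM. GD15M_CM was 5.38-fold above GD15M_LM and 2.11-fold above CD15M_CM. Of 8 HOXB genes, 6 lay in the GD15M_CM domain, 4 in the CD15M_CM domain and none in a domain of GD15M_LM, where the best piece ranked 1091. H3K4me3 was also lowest in GD15M_LM but highest in CD15M_CM, with a score of 1293 in GD15M_CM, against 679 in GD15M_LM and 1882 in CD15M_CM. Its log2 ratio of CD15M_CM over GD15M_CM was 0.54, near the median of 0.52 over loci. The HOXD locus at chr15:81905151-81979039 set GD15M_CM apart from both other lists, with 103 in GD15M_CM, 223 in GD15M_LM and 210.1 in CD15M_CM, and had 5 of 8 HOXD genes in the GD15M_LM domain against 3 in each circular muscle. Without the gene ends, the log2 ratio of CD15M_CM over GD15M_CM at HOXD was -0.39 in place of 1.03. None of the 9 HOXC genes lay in a domain of any list.

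WT1, a factor of the urogenital ridge that also marks mesothelium, scored 76.7 in GD15M_CM, 207 in GD15M_LM and 113 in CD15M_CM at chr2:28374508-28433718, highest in GD15M_LM, whose H3K4me3 score of 712 was also above the 276 of GD15M_CM and the 447 of CD15M_CM. Of the 8 other placed mesothelium markers, BNC2 had a gene score of 19.9 in GD15M_CM, 97.7 in GD15M_LM and 124 in CD15M_CM and UPK3B one of 29.3 in GD15M_CM, 0 in GD15M_LM and 19.3 in CD15M_CM, and UPK1B, LRRN4, BNC1, CALB2, KRT19 and PKHD1L1 were at 0 in all 3 lists. The part of mesothelial cells in the WT1 value was not tested. NR2F2, an orphan nuclear receptor of uterine mesenchyme, scored 158 in GD15M_CM, 214 in GD15M_LM and 224 in CD15M_CM, and its relative NR2F1, held by GD15M_LM alone, 34.7 in GD15M_CM, against 74.5 in GD15M_LM and 72.5 in CD15M_CM. The TALE homeodomain genes MEIS1 and MEIS2, which code for HOX cofactors, had 83.6 in GD15M_CM, 141 in GD15M_LM and 129.6 in CD15M_CM for MEIS1 and 34.9 in GD15M_CM, 94.96 in GD15M_LM and 115 in CD15M_CM for MEIS2. EMX2, required for the urogenital tract, had 75.6 in GD15M_CM, 140.2 in GD15M_LM and 143 in CD15M_CM, and its direction against GD15M_CM turned in both lists when the gene ends were left out. OSR2, an odd-skipped factor, was held by CD15M_CM alone with 37.5 in GD15M_CM, 52.6 in GD15M_LM and 83.0 in CD15M_CM.

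Immediate early genes and AP-1 factors were the list with the most members in the GD15M_CM domains. Of 30 listed genes, 13 overlapped a domain of GD15M_CM, 9 one of GD15M_LM and 8 one of CD15M_CM, beside the 3.53%, 3.15% and 2.87% of all genes. All of the 9 and all of the 8 were among the 13. FOS, a subunit of AP-1, was held by GD15M_CM alone, with 114 in GD15M_CM, 64.9 in GD15M_LM and 66.5 in CD15M_CM, where the peaks covered 19.1 in GD15M_CM, 12.2 in GD15M_LM and 13.9 in CD15M_CM (kb) at a mean fold of 5.99 in GD15M_CM, 5.30 in GD15M_LM and 4.79 in CD15M_CM. Its H3K4me3 score was 105 in GD15M_CM, 182 in GD15M_LM and 122 in CD15M_CM, highest in GD15M_LM, so the marks ranked the lists differently. At most loci, however, H3K4me3 was higher in each of the other lists than in GD15M_CM. JUND, another AP-1 subunit, was held by all 3 with 179 in GD15M_CM, 87.7 in GD15M_LM and 129 in CD15M_CM, and JUNB by both circular muscles with 99.96 in GD15M_CM, 60.8 in GD15M_LM and 89.8 in CD15M_CM. IER2, an early response gene beside STX10, had 107 in GD15M_CM, 62.4 in GD15M_LM and 91.8 in CD15M_CM, and MCL1, which codes for a survival factor of the BCL2 family, 180.2 in GD15M_CM, 93.0 in GD15M_LM and 129 in CD15M_CM. In these 5 loci GD15M_CM was the highest list.

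FOSB, FOSL2, ZFP36 and KLF9 were held by both pregnant layers and not by CD15M_CM. ZFP36, whose product speeds the decay of cytokine mRNAs, showed the widest gap between the stages, with 143 in GD15M_CM, 113 in GD15M_LM and 53.2 in CD15M_CM at chr6:48046006-48096524, a locus of 9 genes that also holds SUPT5H. The ZFP36 score was 2.69-fold higher in GD15M_CM than in CD15M_CM, with 23.8 in GD15M_CM, 19.3 in GD15M_LM and 9.52 in CD15M_CM (kb) covered at a mean fold of 6.02 in GD15M_CM, 5.86 in GD15M_LM and 5.59 in CD15M_CM. H3K4me3 at the ZFP36 locus scored 565 in GD15M_CM, 695 in GD15M_LM and 716 in CD15M_CM. Since H3K4me3 was higher in CD15M_CM than in GD15M_CM at 86.9% of 489 loci, that order is not particular to ZFP36. FOSL2 had 112 in GD15M_CM, 127 in GD15M_LM and 81.1 in CD15M_CM, and FOSB, in a locus with VASP and ERCC1, 137 in GD15M_CM, 85.8 in GD15M_LM and 108 in CD15M_CM. In CD15M_CM both the FOSL2 and the FOSB score were above its rank 300 score of 80.7, but split over smaller domains. For FOSL2 the ratio of CD15M_CM over GD15M_CM turned above 1 without the gene ends, at log2 0.24. KLF9, a target of steroid and glucocorticoid receptors, had 83.0 in GD15M_CM, 80.6 in GD15M_LM and 74.3 in CD15M_CM, which differ little. Its CD15M_CM score would have passed the lower rank 300 scores of GD15M_CM (72.7) and GD15M_LM (72.0). ZFP36L1, the relative of ZFP36, was held by all 3 with 209 in GD15M_CM, 166 in GD15M_LM and 120.4 in CD15M_CM, as were DUSP1, IER3 and KLF6, whose scores lay between 80.7 and 106. Over the whole list the gene score did not lean between the pregnant layers, higher in GD15M_LM for 15 genes and lower for 14, but was lower in CD15M_CM than in GD15M_CM for 20 genes and higher for 9 (21 and 8 when scaled to the list totals), beside 7654 lower and 7923 higher of all genes. These genes are short, and without the peaks within 2.5 kb of a gene end 0 of them stayed in a domain of GD15M_CM, 2 in GD15M_LM and 0 in CD15M_CM.

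Interferon and antigen presentation genes in the domains were few in number and lay in GD15M_CM. Of 22 listed genes, 2 overlapped a domain of GD15M_CM (9.09%) and none overlapped one of GD15M_LM or CD15M_CM, beside the 3.53%, 3.15% and 2.87% of all genes. IRF2, a factor that binds interferon-stimulated promoters, had a locus at chr15:45602820-45637066 with 92.0 in GD15M_CM, 41.1 in GD15M_LM and 38.7 in CD15M_CM, and 12.0 in GD15M_CM, 4.22 in GD15M_LM and 5.98 in CD15M_CM (kb) covered at a mean fold of 7.65 in GD15M_CM, 9.74 in GD15M_LM and 6.47 in CD15M_CM. SLA-DMB, which helps load peptides onto MHC class II, lay with BRD2 and SLA-DMA at chr7:25115584-25162285. This locus scored 116 in GD15M_CM, whereas CD15M_CM had 62.0 and GD15M_LM had 72.2. The GD15M_LM value exceeded that list's rank 300 score of 72.0, although no single domain there did. Absence of SLA-DMB from the GD15M_LM domains was therefore borderline, and only IRF2 lay below the rank 300 score in both other lists. Over the whole list, inside and outside the domains, the gene score was higher in GD15M_CM than in GD15M_LM for 18 of 22 genes and lower for 3, and higher than in CD15M_CM for 20 and lower for 1. The summed gene score of the list was 564 in GD15M_CM, 313 in GD15M_LM and 232 in CD15M_CM, whereas over all genes 8393 were higher in GD15M_CM than in GD15M_LM and 7351 lower, and 7654 were higher in GD15M_CM than in CD15M_CM and 7923 lower.

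Of each list of markers of other cell types at most 1 gene lay in a domain of any 1 tissue, counts too small to be set apart from the 3.53%, 3.15% and 2.87% of all genes. Of 14 T cell markers none lay in a domain, 2 had a filtered peak in each list, and CD3E, CD3D, CD3G, CD8A, CD2, CD5, RUNX3, IKZF1 and PTPRC were at 0 in all 3, with a summed gene score of 37.2 in GD15M_CM, against 21.1 in GD15M_LM and 25.4 in CD15M_CM. The epithelium list had 1 of 14 in a domain of the pregnant layers, MUC1, which shares a locus of 13 genes, and its summed gene score was 156 in GD15M_CM, 50.8 in GD15M_LM and 55.6 in CD15M_CM, with KRT19 and ELF3 at 0 in all 3. For endothelium 1 of 14 was in a domain of the pregnant layers, NOTCH4, and the sums were 67.2, 37.9 and 35.0, with CDH5, KDR, FLT1, TIE1, ROBO4, EMCN and ESAM at 0 in all 3. Among 12 macrophage and B cell markers CD68 lay in a gene-dense domain of all 3 lists, and the sums were 52.0, 49.4 and 66.5, with CD163, LYZ, MS4A1 and PAX5 at 0 in all 3. The epithelium, endothelium and T cell sums were thus highest in GD15M_CM, where the interferon and AP-1 counts were also highest, and the part of such cells in those counts was not tested.

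Loci of GD15M_CM alone were led by genes outside the lists. The first, at chr4:94779294-94839754, overlapped 8 genes, among them ZBTB7B, SHC1, PYGO2 and CKS1B, and scored 183 in GD15M_CM, 81.6 in GD15M_LM and 65.5 in CD15M_CM. PITPNC1, which codes for a phosphatidylinositol transfer protein, had 159.9 in GD15M_CM, 28.6 in GD15M_LM and 35.3 in CD15M_CM, with 22 in GD15M_CM, 2 in GD15M_LM and 5 in CD15M_CM filtered peaks, and was the locus of this class with the widest gap among the 5 of largest score. STX18, a syntaxin of the endoplasmic reticulum, had 160.0 in GD15M_CM, 29.3 in GD15M_LM and 75.05 in CD15M_CM, and H3K4me3 there was also lowest in GD15M_LM, at 82.1, against 222 in GD15M_CM and 307 in CD15M_CM. MKNK2, a kinase of the translation factor eIF4E, had 158 in GD15M_CM, 30.4 in GD15M_LM and 56.5 in CD15M_CM, and LRCH1 had 148 in GD15M_CM, 42.2 in GD15M_LM and 62.1 in CD15M_CM. For MKNK2 and LRCH1 the H3K4me3 scores lay close together, with 401 in GD15M_CM, 452 in GD15M_LM and 403 in CD15M_CM for MKNK2.

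The loci of both circular muscles were led by JAZF1, with 327 in GD15M_CM, 121 in GD15M_LM and 244 in CD15M_CM, and by the HOXB cluster. JAZF1, a zinc finger cofactor whose gene is rearranged in endometrial stromal tumors, carried 44 in GD15M_CM, 23 in GD15M_LM and 35 in CD15M_CM filtered peaks over chr18:44465664-44610208. Among the loci of largest score in this class were also AFF1, of the elongation machinery, with 192 in GD15M_CM, 100.004 in GD15M_LM and 222 in CD15M_CM, and ERGIC1, with 239 in GD15M_CM, against 103 in GD15M_LM and 136 in CD15M_CM. The loci of largest score held by GD15M_LM alone included a locus without a RefSeq gene at chr14:2166751-2190890, with 25.5 in GD15M_CM, 138 in GD15M_LM and 76.0 in CD15M_CM, and those of KANK2, DOCK6 and SPC24, with 54.5 in GD15M_CM, 133 in GD15M_LM and 116 in CD15M_CM, and of MOB2 and DUSP8, with 45.6 in GD15M_CM, against 129 in GD15M_LM and 75.1 in CD15M_CM. The locus of WASF2 and AHDC1 at chr6:84695824-84807439, at rank 3 of the CD15M_CM list, was held by GD15M_LM and CD15M_CM, with 119.9 in GD15M_CM, 349 in GD15M_LM and 388 in CD15M_CM.

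Loci of CD15M_CM alone were led by FBXO32, an atrophy-linked ubiquitin ligase of muscle, with 71.2 in GD15M_CM, 65.3 in GD15M_LM and 167 in CD15M_CM. DOCK9, ZCCHC24, RBPMS and BCAR1 followed. RBPMS, an RNA-binding protein that drives smooth muscle splicing, had 76.9 in GD15M_CM, 54.0 in GD15M_LM and 138 in CD15M_CM, and BCAR1, an adhesion scaffold, had 67.0 in GD15M_CM, 70.1 in GD15M_LM and 137 in CD15M_CM. DOCK9 scored 78.3 in GD15M_CM, 82.6 in GD15M_LM and 150.2 in CD15M_CM, and ZCCHC24 66.5 in GD15M_CM, 88.4 in GD15M_LM and 141 in CD15M_CM. In each of these 5 loci both pregnant layers lay below the cyclic list. The loci of both pregnant layers were the smallest class, and of its 5 of largest score the clearest gap to CD15M_CM was at AHNAK, MTA2 and EEF1G, with 149 in GD15M_CM, against 175 in GD15M_LM and 82.3 in CD15M_CM. The others, with CD151 and PNPLA2, with MUC1 and EFNA1, with P4HB and MAFG, and with FOSB, had CD15M_CM scores from 108 to 153. All 5, with the AHNAK locus, were thus above the CD15M_CM rank 300 score of 80.7, but split over smaller domains. SMAD7, the inhibitory SMAD of TGF-beta signaling, was held by both circular muscles with 88.4 in GD15M_CM, 59.3 in GD15M_LM and 84.4 in CD15M_CM, and AMOTL2, of the Hippo pathway, by GD15M_LM alone with 30.1 in GD15M_CM, 78.4 in GD15M_LM and 53.6 in CD15M_CM.

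Across the 516 loci, a 2-fold gap between lists was less frequent than over all joined regions. However, a region with filtered peaks in a single list was counted as a gap. In the first comparison, only 8835 of the 17648 regions had them in both lists. With peaks in both lists, the quartiles of the log2 ratio of GD15M_LM over GD15M_CM were -0.67 and 0.80 over loci and -0.68 and 0.43 over regions. For CD15M_CM over GD15M_CM they were -0.40 and 0.87, against -0.47 and 0.58. For GD15M_LM over CD15M_CM they were -0.58 and 0.32, against -0.70 and 0.29. There the loci did not lie closer between lists in the comparisons with GD15M_CM. The score was at least 2-fold higher in GD15M_LM than in GD15M_CM at 108 loci (20.9%; 33% of all joined regions) and at least 2-fold lower at 91 (17.6%; 30.4%). CD15M_CM was at least 2-fold above GD15M_CM at 109 loci (21.1%; 37%) and below it at 47 (9.11%; 26.7%). Between GD15M_LM and CD15M_CM the counts were 32 (6.20%; 24.9%) and 61 (11.8%; 33.5%). Since the loci were chosen by this score, these counts are a description. The study itself tested H3K27ac regions for differences between groups. It reported far fewer differing regions between GD15M_CM and CD15M_CM than between GD15M_CM and GD15M_LM. The gaps to CD15M_CM described here were not set against that test.

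H3K4me3, which did not enter the choice, gave a second reading of the same loci. Its score was higher in GD15M_LM than in GD15M_CM at most loci, with a median log2 ratio of 0.52 over 489 loci and 0.40 over all joined regions. For CD15M_CM over GD15M_CM the medians were 0.52 over 489 loci and 0.43 over all joined regions. The values here and at the single loci above are read against these shifts. Among loci at least 2-fold higher for H3K27ac in GD15M_LM, all 88 with H3K4me3 in both lists were also higher for H3K4me3, with a median log2 ratio of 1.38. Among the loci at least 2-fold lower, 40 of 88 were higher, with a median of -0.06, and among those within 2-fold 270 of 309, with a median of 0.50. For CD15M_CM over GD15M_CM the same counts were 90 of 91, 32 of 44 and 299 of 350, with medians of 0.92, 0.35 and 0.48. Over loci the log2 ratios of the marks had a Pearson r of 0.64 for GD15M_LM over GD15M_CM (Spearman rho 0.68, 485 loci), compared with 0.46 over all joined regions, and 0.44 for CD15M_CM over GD15M_CM (rho 0.49, 485 loci), compared with 0.37. For GD15M_LM over CD15M_CM, the pair without the GD15M_CM list, it was 0.31 (rho 0.35, 501 loci), compared with 0.28, and H3K4me3 was higher in GD15M_LM at 22 of 28 loci at least 2-fold higher for H3K27ac, 17 of 58 at least 2-fold lower and 227 of 415 within 2-fold. These correlations are across loci of 1 pooled list per mark, which share the groups and their IgG controls, and loci are not independent replicates. The plot of the ratios shows this slope and the upward shift of H3K4me3.

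**Figure D4:**
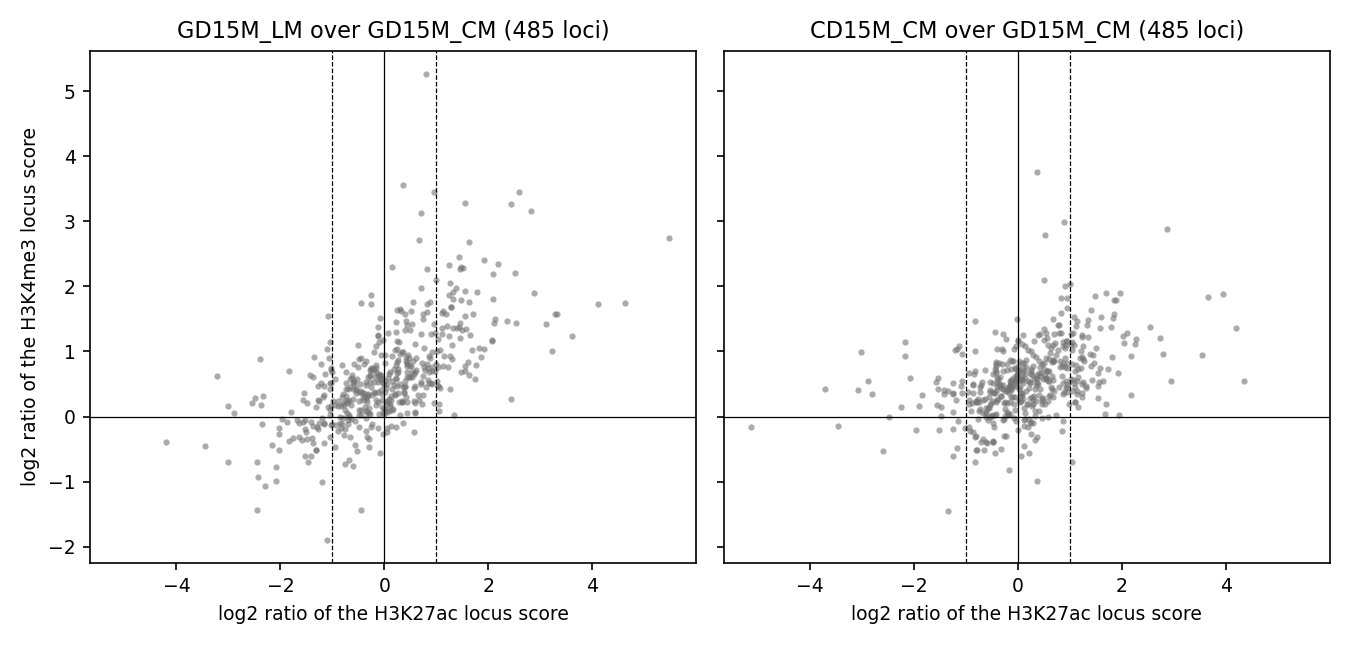
For each locus with both marks in both lists, the log2 ratio of the H3K4me3 score against the log2 ratio of the H3K27ac score, for GD15M_LM over GD15M_CM (left) and CD15M_CM over GD15M_CM (right), 485 loci each; dashed lines mark a 2-fold H3K27ac gap. Right of the upper dashed line nearly every point lies above 0, and left of the lower one the points lie on both sides of 0.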

How the data were processed

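CUT&Tag of H3K27ac and H3K4me3 was carried out on myometrium from 2 gilts per group, with IgG as the control. Per the labels and the methods of the study, the authors aligned reads with BWA (0.7.17-r1188) to pig assembly Sus scrofa 11.1, removed duplicates and reads with a mapping quality below 25 with SAMtools (1.9) and Picard (2.8.3), pooled the gilts and called peaks with MACS2 (2.2.6). The 6 deposited peak lists give the position and the fold enrichment of each peak, a ratio over the control; whether this is the value at the summit or over the peak is not given in the sources used here. A pooled list holds no count of reads, and the read numbers that the study reports were not used. Depth was therefore not taken into account, the precision of the fold enrichment is not known, and 2 columns per list with an unreadable header were not used.

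The members and the gene lists were chosen with earlier results of these data known. Peaks were filtered (fold enrichment of at least 4), joined (less than 12500 bases apart) and ranked in Python (3.11.15) with pandas (2.3.3) and NumPy (2.4.6), and the joining and overlap steps were tested on simulated data. Domains of the 3 lists that overlapped by at least 1 base were joined into loci, and a locus was held by a list if it contained 1 of its 300 domains. The locus score sums all filtered peaks of a list inside the locus. H3K4me3 scores used all H3K4me3 peaks. Genes were the 28073 RefSeq genes of Sscrofa11.1 on chromosomes 1 to 18 and X, the same build as the files, and 14 gene lists (293 genes) were matched by symbol. Gene scores took the gene and 3 kb on each side. Exact binomial intervals (SciPy 1.17.1) cover counting error only. The genes named were those of the first 5 domains of each list, of the 5 loci of largest score held by all 3 tissues, by 1 tissue, by both circular muscles and by both pregnant layers, and every listed gene that overlapped a domain; a few of these genes are not reported here. The rest of the genes named were markers at 0, and listed genes outside the domains, given after their values were seen. Differences between lists were described and not tested. The alternatives were a fold minimum of 5, joining below 5 kb, 500 domains, ranking by summed peak length, peaks within 2.5 kb of a RefSeq gene end left out, equal numbers of peaks, and an overlap of at least 50%. Scores scaled to the list totals were added after the data were seen. No sequence was read, as no genome was used here.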

Additional observations from a re-analysis of the deposited data

Results flagged for a closer look

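The choice of domains left out sequences other than chromosomes 1 to 18 and X. On those sequences, joined in the same way, 4 domains of GD15M_LM had a score at or above that of rank 300, as had 2 of GD15M_CM and 2 of CD15M_CM. The first of GD15M_LM scored 173. These sequences are unplaced scaffolds and chromosome Y, and the genes on them were not analysed here.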

How the results depend on the processing

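With a fold minimum of 5, the loci of all 3 tissues fell from 109 to 70.0, the share of GD15M_CM domains that overlap a GD15M_LM domain from 46.0% to 37.0%, and the share that overlap a CD15M_CM domain from 55.0% to 41.7%. With 500 domains, 211 loci were held by all 3 tissues and 55.0% of GD15M_CM domains overlapped a GD15M_LM domain, where more domains were kept by construction. Under the other 5 alternatives these values and the 88 loci of GD15M_LM alone (72.0 to 116 over all 7) moved by less than 1.5 times or stayed within their intervals. GD15M_CM shared more domains with CD15M_CM than with GD15M_LM under all 7.

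Of 136 log2 ratios against GD15M_CM for listed genes in the domains, 136 kept their sign with equal numbers of peaks, 133 of 136 when scaled to the list totals, 116 of 128 with a fold minimum of 5 and 95 of 111 without gene ends. Without gene ends, ratios of at least 2-fold turned at TBX2 (GD15M_LM over GD15M_CM, -2.05) and, for CD15M_CM over GD15M_CM, at HOXD9, HOXD10 and HOXD11 (1 locus, -0.39) and LAMA5 (-0.42). The cause was not tested. Matrix genes in the domains numbered 0 to 1 in GD15M_CM and 7 to 10 in GD15M_LM under all 6 alternatives run on them, and contractile genes 5 to 10 and 7 to 15. No paired analysis was possible because the gilts were pooled before peak calling and the lists hold no value per gilt. For the same reason no gilt could be left out. No count was adjusted for sequencing depth, which limits every count.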

Other observations

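MicroRNA genes were present in the domains beyond MIR143 and MIR145, with 22 of 307 in GD15M_CM, 17 in GD15M_LM and 21 in CD15M_CM, beside 3.53%, 3.15% and 2.87% of all genes. MIR132 and MIR212 lay in a domain of all 3 lists. MIR23B, MIR27B and MIR24-2, MIR195 and MIR497, and MIR10A of the HOXB locus lay in domains of both circular muscles, whereas MIR23A, MIR27A and MIR24-1 lay in domains of GD15M_LM and CD15M_CM. MIR10B, in the HOXD locus, was in the domain of GD15M_LM. MIR146B, MIR210 and MIR326 lay in a domain of GD15M_CM alone. These microRNAs were chosen after their positions were seen.

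The domains were spread unevenly over the chromosomes. Chromosome 12 held 13.2% of the 900 domains, where it holds 5.23% of the RefSeq genes and 4.76% of all joined domains, and chromosome 2 held 12.4%, where it holds 9.56% of the genes and 7.40% of all joined domains. Chromosome 8 held 6 of the 900, against 3.96%, chromosome 13 held 18 of the 900 domains, against 7.32% of all joined domains, and chromosome X held 1 domain, in GD15M_LM, against 1.91%.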
